A study of Mus musculus with 8 samples.

Results

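The Skint genes (selection and upkeep of intraepithelial T cells) encode membrane proteins of mouse keratinocytes. The members were taken by gene symbol, as Skint1, Skint2, Skint3, Skint4, Skint5, Skint6, Skint7, Skint9, Skint10 and Skint11, which are 10 of the 55488 genes in the deposited tables. All 10 passed the filter on low counts that left 16908 genes for testing. They were followed in bulk RNA-seq of dorsal skin from 3-month-old mice, with 4 libraries from TPH1 knockout mice and 4 from wild-type (WT) mice. Tph1 encodes tryptophan hydroxylase 1, the enzyme that makes serotonin in peripheral tissues. The labels name neither the strain, the sex, nor the knockout allele, and they do not say if the libraries of a genotype are from separate animals, so the p-values below measure the spread between libraries, which may be technical. All libraries contain whole skin, in which less RNA per keratinocyte and fewer keratinocytes cannot be told apart.

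Skint proteins resemble butyrophilins, with immunoglobulin-like domains outside the cell followed by several membrane-spanning segments. Skint1, the founding member, is made by thymic epithelium and suprabasal keratinocytes, and it is required for the development of the dendritic epidermal T cells, the gamma delta T cells that populate mouse epidermis. Those T cells carry an almost uniform receptor built from the gene segments Trgv5 and Trdv4, and they survey keratinocytes for stress and support wound repair. The roles of most other Skint proteins are less well defined.

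The libraries held 20531600 to 24678600 estimated counts, and their totals did not separate the genotypes (exact permutation p = 0.743, two-sided, where 0.0286 is the smallest p that 4 against 4 libraries can give). Tph1 had 0 counts in each TPH1 knockout library, and 18, 0, 27 and 11 counts in WT libraries 1 to 4, so that 1 WT library also lacked it. The basal keratin gene Krt5 averaged 5917 ± 1700 CPM (counts scaled to library size) in TPH1 knockout skin and 7440 ± 2281 CPM in WT skin (SD, n = 4 each), so the defining keratin of epidermis was present in both. Together the 10 Skint genes took 0.0101% to 0.0226% of the counts of a TPH1 knockout library and 0.0124% to 0.0262% of those of a WT library. The member with the fewest counts, Skint2, had 18 to 128 per library, and the member with the most, Skint7, had 494 to 1687.

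The members lie side by side on chromosome 4, from 111972923 to 114245028 in GRCm38, a stretch of 2.27 Mb. The order along the plus strand is Skint7, Skint1, Skint4, Skint3, Skint9, Skint2, Skint10, Skint6, Skint5 and Skint11, and Skint9, Skint10, Skint6 and Skint5 are read from the minus strand. Skint7 is the shortest gene at 15.3 kb, while Skint6 and Skint5 span 482.4 and 521.6 kb. These long genes also have the longest coding sequences, 3720 bases in 48 coding exons for Skint6 and 4425 bases in 59 for Skint5, against 957 to 1446 bases in the other members. Identity of coding sequences was taken over the whole alignment, so gaps from unequal length lower it. Among the members it was highest for Skint9 and Skint10 (77.4%, 824 of 955 aligned bases identical). Skint5 and Skint6 followed (74.4%, 3292 of 3720 aligned bases), and then Skint3 and Skint4 (71.3%). Over aligned bases only, Skint5 and Skint6 ranked above Skint9 and Skint10. Skint7 was closer still to Skint8, a family gene next to it that is not among the members (89.9%).

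RefSeq (GRCm38.p6) gave 11 promoter entries for the 10 members, each running from 250 bases before the gene start to 50 after it. Those of Skint1 and Skint7 are shown because these neighbouring genes had log2 fold changes of opposite sign, and the capitals mark TATAAA on either strand.
Skint1: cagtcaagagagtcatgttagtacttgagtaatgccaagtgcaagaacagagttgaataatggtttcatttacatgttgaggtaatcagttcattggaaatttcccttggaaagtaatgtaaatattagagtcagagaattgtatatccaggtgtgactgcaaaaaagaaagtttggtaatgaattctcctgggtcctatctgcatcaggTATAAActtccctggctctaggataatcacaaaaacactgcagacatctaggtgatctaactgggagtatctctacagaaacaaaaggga
Skint7: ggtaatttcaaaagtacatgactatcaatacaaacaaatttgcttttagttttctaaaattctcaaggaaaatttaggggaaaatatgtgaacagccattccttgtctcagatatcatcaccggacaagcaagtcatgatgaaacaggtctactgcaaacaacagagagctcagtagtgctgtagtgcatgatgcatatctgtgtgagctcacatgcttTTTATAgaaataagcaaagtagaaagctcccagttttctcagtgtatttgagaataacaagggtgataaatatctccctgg
The Skint1 window is chr4:112006019-112006318 and the Skint7 window is chr4:111972677-111972976, both on the plus strand. The match begins 40 bases before the start of Skint1 and 31 bases before that of Skint7. TATAAA was found in 7 of the 11 entries, against 13.6% of 32851 mouse promoter entries. The matches in the other entries were all on the reverse strand. They began anywhere from 218 bases before the start, in Skint11, to base 8 after it, in Skint6. The other motifs searched on both strands were TGANTCA, a binding sequence of AP-1, in 1 of the 11 entries against 7.8% of all, CCAAT in 4 against 37.4%, and AGATAA, which GATA factors bind, in 1 against 11.2%. No motif's letters contain those of another, and a match describes the letters only.

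The promoters of Skint5 and Skint6 are shown because they are near copies. Every other pair of the 11 entries was at most 60.3% identical over its alignment, gaps included. They were 89.7% identical without a gap, and the capitals mark the 31 positions at which they differ.
Skint5: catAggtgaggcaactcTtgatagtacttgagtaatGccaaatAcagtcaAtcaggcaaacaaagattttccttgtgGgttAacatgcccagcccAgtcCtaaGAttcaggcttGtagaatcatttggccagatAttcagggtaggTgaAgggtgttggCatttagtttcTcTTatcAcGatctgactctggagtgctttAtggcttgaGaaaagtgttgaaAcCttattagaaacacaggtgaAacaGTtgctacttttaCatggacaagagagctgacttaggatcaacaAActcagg
Skint6: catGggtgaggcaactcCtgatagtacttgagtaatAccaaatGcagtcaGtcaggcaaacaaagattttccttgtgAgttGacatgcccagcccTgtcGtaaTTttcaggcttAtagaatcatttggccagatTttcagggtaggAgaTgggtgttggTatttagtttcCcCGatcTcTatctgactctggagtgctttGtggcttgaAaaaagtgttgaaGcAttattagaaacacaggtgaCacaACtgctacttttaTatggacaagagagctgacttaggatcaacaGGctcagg
Both windows are on the minus strand, Skint5 at chr4:113999454-113999753 and Skint6 at chr4:113286924-113287223. Their counts were not fully separate either. RSEM, which shares out reads that align to more than 1 gene, gave both genes values that were not whole in 6 libraries, and in all 6 their sum was whole within 0.015. The same held for Skint7 and Skint8 in all 8 libraries. Some reads of these pairs were therefore divided by estimate, so their separate values are uncertain, while the other 7 members had whole counts in every library.

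Levels per gene length, in TPM (transcript abundance scaled to length and library size), put Skint7 first in both genotypes and Skint2 last. Skint7 averaged 41.6 ± 11.5 TPM in TPH1 knockout skin and 34.0 ± 10.1 TPM in WT skin (SD, n = 4 each, as for all means here). Skint9 came second with 18.4 ± 11.2 TPM in TPH1 knockout skin and 27.0 ± 8.57 TPM in WT skin, and Skint10 was next with 16.5 ± 8.41 TPM in TPH1 knockout skin and 22.2 ± 10.8 TPM in WT skin. Skint1 held the fourth place at 7.98 ± 1.49 TPM in TPH1 knockout skin and 14.9 ± 3.19 TPM in WT skin. Below it, Skint11, Skint3, Skint4, Skint5 and Skint6 averaged between 3.31 and 7.94 TPM in TPH1 knockout skin and between 5.83 and 13.2 TPM in WT skin. Skint2 averaged 3.29 ± 3.05 TPM in TPH1 knockout skin and 3.45 ± 0.401 TPM in WT skin. The ranges of each gene and the next in the order overlapped in both genotypes. All genes were measured in the same libraries, which this overlap ignores, and the order of neighbours was not tested.

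**Figure D1:**
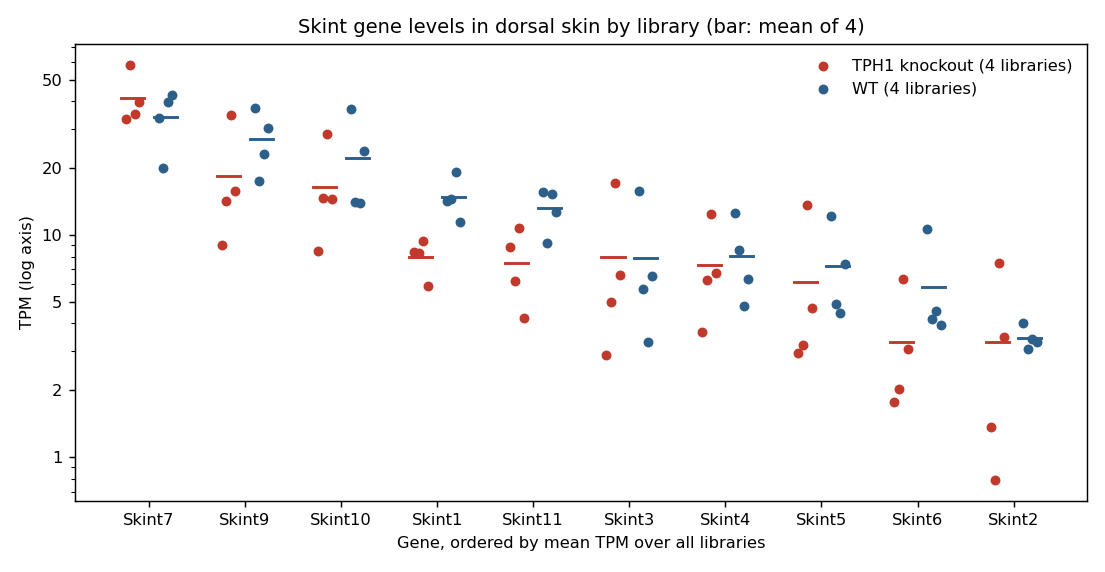
TPM (log axis) of each Skint gene in 4 TPH1 knockout libraries (red, left) and 4 WT libraries (blue, right), with a bar at the mean of each group and genes ordered by their mean over all libraries. For Skint1 the highest TPH1 knockout library, at 9.37 TPM, lies below the lowest WT library, at 11.49 TPM, and for every other gene the genotypes overlap.

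No Skint gene passed the test between TPH1 knockout and WT skin at an adjusted p under 0.05 (edgeR quasi-likelihood test with Benjamini-Hochberg adjustment over all genes tested), where 0.651% of all genes passed, 0.532% lower and 0.118% higher in TPH1 knockout skin. At an unadjusted p under 0.05 there were 2 of the 10, Skint1 and Skint11, against 17.6% of all genes. The log2 fold change, TPH1 knockout over WT, was negative for 8 of the 10, against 46.9% of all genes tested, and for 9 of the 10 with DESeq2's size factors. It was negative for 7 without WT library 1, TPH1 knockout library 1 or TPH1 knockout library 2, and for 3 with the level of a spinous layer marker list as a covariate, an alternative chosen after the data were seen. Its median was -0.47 over the members and 0.029 over all genes. The median was -0.17, -0.30 and -0.83 without WT library 1, TPH1 knockout library 1 and TPH1 knockout library 3, and it stayed negative in each of the 8 fits that left out 1 library. With the spinous covariate the median was 0.46.

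Skint1 had the smallest p of the family. It was measured at 8.38, 8.29, 9.37 and 5.87 TPM in TPH1 knockout libraries 1 to 4, against 14.2, 14.5, 19.2 and 11.5 TPM in WT libraries 1 to 4. Every TPH1 knockout library was below every WT library, as was so for 5.65% of all genes tested. On the count scale it averaged 4.81 ± 0.496 CPM in TPH1 knockout skin and 8.58 ± 1.17 CPM in WT skin (SD, n = 4 each). The log2 fold change was -0.83 ± 0.18 (SE, 95% interval -1.24 to -0.42), or 0.561 of the WT level, with an edgeR adjusted p of 0.0801. DESeq2's Wald test on the same counts called Skint1, and no other member, with an adjusted p of 0.00113, where it called 5.88% of all genes, 3.83% lower in TPH1 knockout skin. The adjusted p of Skint1 ran from 0.00113 to 0.5998 over 12 other settings and from 0.0884 to 0.287 when 1 library was left out, and the log2 fold change stayed between -0.93 and -0.69 in all of them. Estimated effective length, which TPM divides by, varied between 636 and 905 bases over the libraries for Skint1, and with it as an offset the log2 fold change was -0.83 (edgeR adjusted p = 0.140). The authors' deposited normalized signal separated the libraries too, with 87.3 to 138 in TPH1 knockout skin and 173 to 258 in WT skin.

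Skint11, Skint6 and Skint9 had the next smallest p-values, with genotypes that overlapped. Skint11 was at 8.80, 6.22, 10.8 and 4.23 TPM in TPH1 knockout libraries 1 to 4, against 15.7, 9.17, 15.3 and 12.7 TPM in WT libraries 1 to 4. Its log2 fold change was -0.78 ± 0.32 (SE, 95% interval -1.50 to -0.065; edgeR adjusted p = 0.251). Skint6 was at 1.77, 2.03, 6.36 and 3.07 TPM in TPH1 knockout libraries, against 10.7, 4.17, 4.55 and 3.94 TPM in WT libraries. TPH1 knockout library 3 and WT library 1 were each the highest of their group for Skint6, and the log2 fold change was -0.82 ± 0.37 (SE, edgeR adjusted p = 0.288). Skint9 was at 8.99, 14.3, 34.7 and 15.7 TPM in TPH1 knockout libraries, against 37.2, 17.5, 23.1 and 30.3 TPM in WT libraries. Its log2 fold change was -0.59 ± 0.31 (SE), and its edgeR adjusted p was 0.352. For Skint9, the TPM of TPH1 knockout library 3 exceeded that of 3 of the 4 WT libraries. In CPM that library was at 27.4, against 31.2, 16.6, 21.7 and 32.8 in WT libraries 1 to 4.

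The remaining members had intervals that spanned changes in both directions. Skint10 was at 8.46, 14.7, 28.4 and 14.6 TPM in TPH1 knockout libraries 1 to 4, against 36.76, 14.11, 13.95 and 23.92 TPM in WT libraries 1 to 4, and Skint4 at 3.67, 6.30, 12.5 and 6.78 TPM in TPH1 knockout libraries, against 12.58, 8.6, 4.8 and 6.35 TPM in WT libraries. For both genes the genotypes overlapped, with TPH1 knockout library 3 and WT library 1 the highest of their groups. Skint10 had a log2 fold change of -0.42 ± 0.33 (SE, 95% interval -1.17 to 0.33), and Skint5 one of -0.52 ± 0.44 (-1.49 to 0.46). Skint4 was at -0.15 ± 0.29 (-0.80 to 0.49) and Skint2 at -0.21 ± 0.51 (-1.36 to 0.94). Skint3 was at 0.0042 ± 0.51 (-1.13 to 1.14), and its sign turned with the scaling and with the library left out. For these genes a change of 1 log2 unit in at least 1 direction lay inside the interval for all but Skint4, so the data leave a sizeable difference unresolved.

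Skint7 and Skint3 were the members whose log2 fold change was not negative, and that of Skint7 was the larger. It was at 33.40, 58.42, 34.96 and 39.61 TPM in TPH1 knockout libraries 1 to 4, against 33.52, 20, 39.88 and 42.59 TPM in WT libraries 1 to 4. The genotypes overlapped over most of their range, and the log2 fold change was 0.35 ± 0.29 (SE, 95% interval -0.31 to 1.01; edgeR adjusted p = 0.552). The make-up of the family differed between libraries accordingly. Skint7 supplied 41.4%, 49.0%, 19.9% and 37.9% of the summed member TPM in TPH1 knockout libraries 1 to 4, against 17.4%, 19.7%, 30.2% and 28.7% in WT libraries 1 to 4. The TPM ratio of Skint7 to Skint1, a pair chosen after the values were seen and given with no test, was 3.99, 7.05, 3.73 and 6.75 in TPH1 knockout libraries and 2.36, 1.38, 2.08 and 3.71 in WT libraries.

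**Figure D2:**
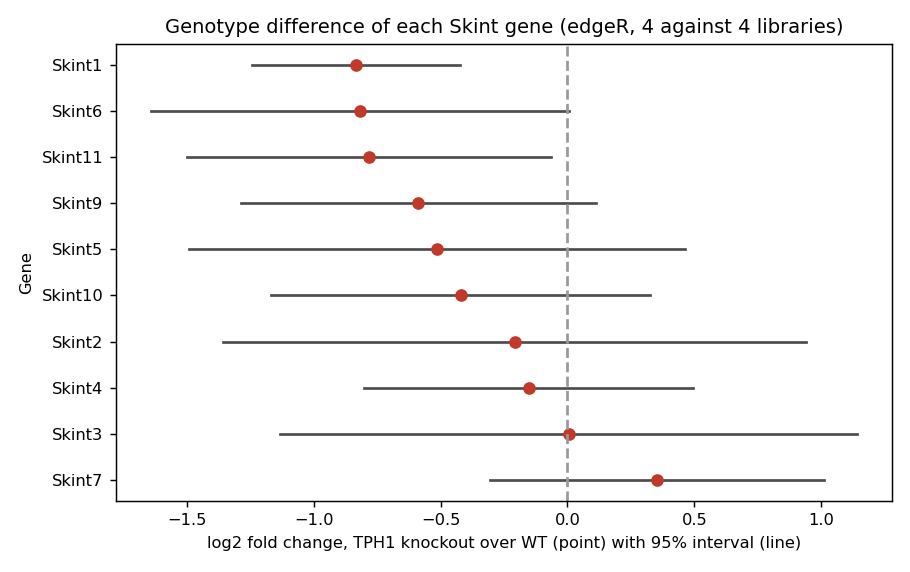
Log2 fold change of each Skint gene, TPH1 knockout over WT, from the edgeR fit (points) with 95% intervals (lines), 4 against 4 libraries. The intervals of Skint1 and Skint11 lie below 0, the other 8 include 0, and no gene passed after adjustment over all genes tested.

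Most members varied together between libraries within a genotype. In CPM, WT library 1 was the highest of all 8 libraries for 5 members and among the highest pair for 8, and TPH1 knockout library 3 was the highest for 2 and among the highest pair for 5. TPH1 knockout library 1 was the lowest for 4 members. Skint3 shows the pattern in full, with 2.90, 5.01, 17.2 and 6.62 TPM in TPH1 knockout libraries 1 to 4, against 15.9, 5.69, 3.31 and 6.55 TPM in WT libraries 1 to 4. For Skint3 each genotype thus had 1 library above the rest, although neither was flagged for this gene in the closing check for far libraries. That check flagged WT library 1 for Skint6. The spread of Skint3 within a genotype was larger than the difference between the genotypes. Skint5 had 2.94, 3.21, 13.7 and 4.68 TPM in TPH1 knockout libraries, against 12.2, 4.89, 4.44 and 7.42 TPM in WT libraries, with the same libraries highest. Skint2 stood out for its spread in TPH1 knockout skin, at 1.37, 0.79, 7.52 and 3.48 TPM, against 4.01, 3.07, 3.40 and 3.30 TPM in WT skin.

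**Figure D3:**
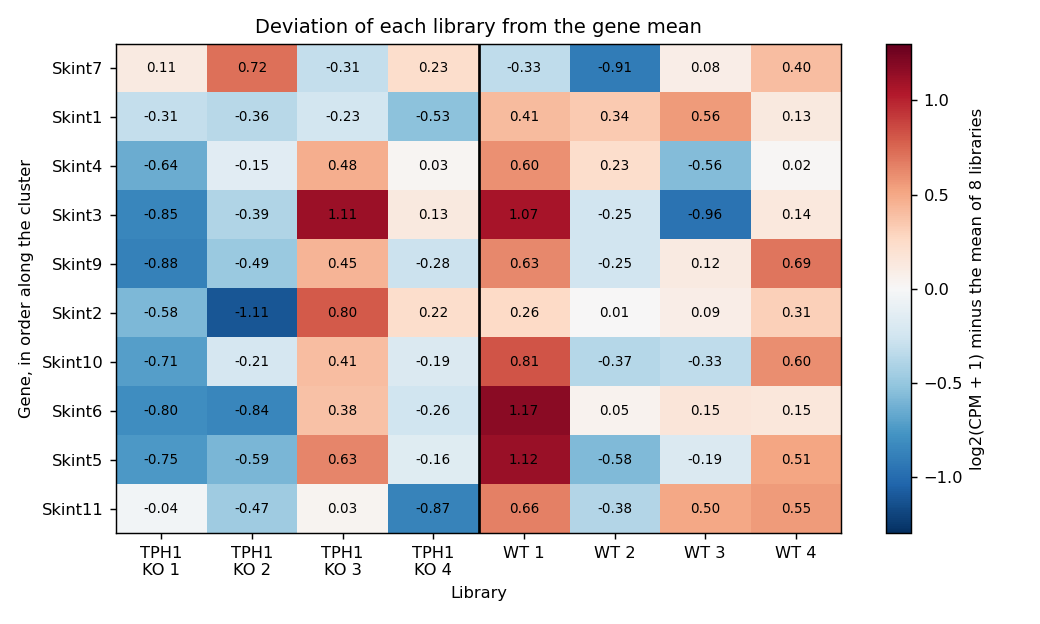
Deviation of log2(CPM + 1) in each library from the mean of 8 libraries for each Skint gene, TPH1 knockout libraries on the left and WT on the right, with genes in their order along chromosome 4. TPH1 knockout library 3 and WT library 1 are both above the mean for the 7 genes from Skint4 to Skint5, and TPH1 knockout library 3 is below it for Skint7 and Skint1 at one end of the cluster.

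Over the 8 libraries, Pearson's r of log2(CPM + 1) was positive for 35 of the 45 pairs of members, with a median of 0.63 (median Spearman's rho 0.62). These values describe libraries that share their genotype and tissue make-up, and they carry no p. The 6 genes Skint3, Skint4, Skint5, Skint6, Skint9 and Skint10, grouped after their values were seen, had r between 0.63 and 0.96 in all 15 pairs. Their median r was 0.84, and it was 0.56 without WT library 1 and TPH1 knockout library 3. Pairs alike in coding sequence ranged widely in r. Skint3 and Skint4 had an r of 0.93, Skint9 and Skint10 of 0.91 and Skint5 and Skint6 of 0.88, or 0.85, 0.88 and 0.67 without those 2 libraries. Skint2 and Skint3, whose coding sequences were 71.0% identical, had an r of 0.64, and Skint10 and Skint11, at 70%, one of 0.56. The highest r of all pairs, 0.96, was that of Skint5 and Skint10. Their coding sequences had 862 identical bases of 1060 aligned. That is 19.5% over the whole alignment, which the greater length of Skint5 fills with gaps. The aligned share is not particular to this pair. Skint1 had 899 identical of 1092 bases aligned with Skint5, and an r of 0.31 with it. For Skint5 and Skint6 the divided reads touch both values. Skint7 was negatively correlated with each of the other 9 members, with r from -0.53 to -0.060, although the median of those 9 values was 0.064 without those 2 libraries. Skint1 was closest to Skint11 (r = 0.72), the member at the far end of the cluster, and not to its neighbours Skint7 (r = -0.48) and Skint4 (r = 0.11). Part of that r is the genotype difference that both genes share. With each genotype centred on its own mean, Skint1 and Skint11 had an r of 0.40. The median over the 9 pairs of Skint1 was then -0.083, against 0.28 without centring.

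**Figure D4:**
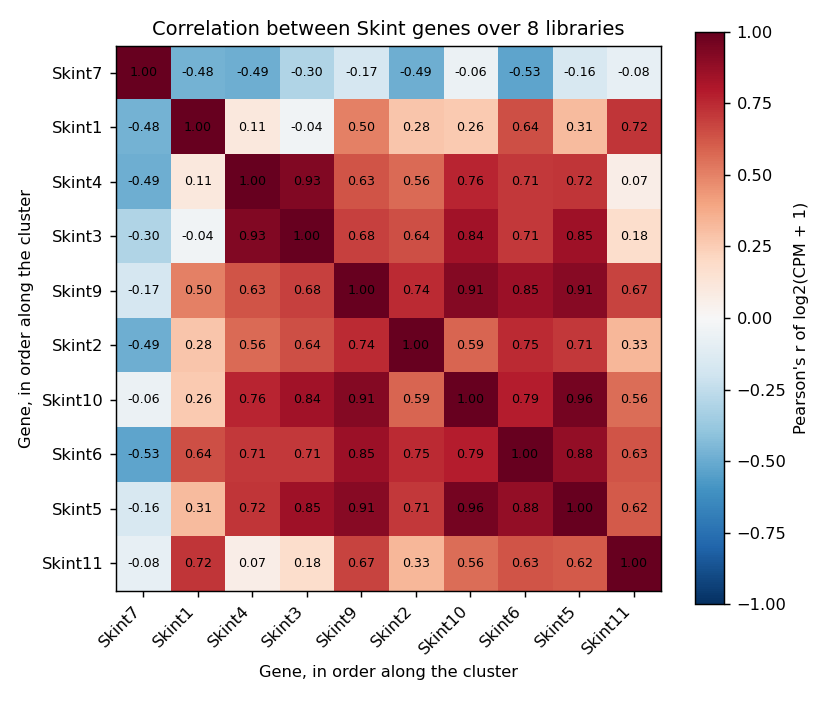
Pearson's r of log2(CPM + 1) over 8 libraries for each pair of Skint genes, with genes in their order along chromosome 4. The genes from Skint4 to Skint5 form a block of positive values, and the values of Skint7 with the other members are all below 0.

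Neighbouring genes on chromosome 4 and relatives of the family were examined in the same fit. Within 1 Mb of the ends of the cluster, 10 genes other than the members were tested and 1 was called. That gene was Pdzk1ip1, which encodes a small membrane-associated protein, at 70.9 ± 8.57 CPM in TPH1 knockout skin and 161 ± 18.9 CPM in WT skin (SD, n = 4 each). It fell by 1.18 ± 0.14 (SE) on the log2 scale, with an edgeR adjusted p of 0.00864 and every TPH1 knockout library below every WT library. The adjusted p of Pdzk1ip1 was 0.0507 without TPH1 knockout library 1, 0.0573 without TPH1 knockout library 2, 0.0126 to 0.0416 without any other library, and 4.00e-12 to 0.289 over the other settings. The others, Slc5a9, Bend5, Tal1, Stil, Cmpk1, Spata6, Trabd2b, Foxd2os and Skint8, had log2 fold changes between -0.53 and 0.56. Skint8, whose reads are partly divided with Skint7, was at 5.47 ± 1.23 CPM in TPH1 knockout skin and 5.96 ± 1.63 CPM in WT skin (edgeR adjusted p = 0.836). Of the 11 listed butyrophilin relatives, including Skint8, only Btnl9 and Ermap were also tested, and 0 were called. Btn1a1, Btn2a2, Btnl1, Btnl2, Btnl10 and Mog were too low to test, and Btnl4 and Btnl6 had 0 counts in every library.

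The Skint genes were set beside markers of the epidermal layers that make them. Of 12 spinous layer genes, 2 fell, 10 did not pass, and all 12 had negative log2 fold changes, with a median of -0.80. At an unadjusted p under 0.05, 9 of the 12 were lower, against 9.37% of all genes tested. Those that fell were Calm4, which encodes an epidermal relative of calmodulin (-1.54 ± 0.21 SE), and Krtdap, which encodes a secreted protein of differentiating keratinocytes (-1.37 ± 0.21). Of 12 granular layer genes 1 fell, Lor, which encodes loricrin of the cornified envelope (-1.47 ± 0.24), and 11 did not pass, while 8 were lower at an unadjusted p under 0.05, with a median of -0.95. Of the 8 fits with 1 library left out, Calm4 passed in those without WT library 2, WT library 3 or TPH1 knockout library 3, Krtdap in those without WT library 2 or TPH1 knockout library 3, and Lor in that without TPH1 knockout library 3. The highest edgeR adjusted p over the 8 fits was 0.108 for Calm4, 0.136 for Krtdap and 0.148 for Lor. Their log2 fold changes over those fits stayed between -1.67 and -1.42 for Calm4, -1.47 and -1.24 for Krtdap, and -1.63 and -1.35 for Lor. Of 10 basal layer genes 0 were called, while 1 was lower and 1 higher at an unadjusted p under 0.05, with a median of -0.078. The mean log2(CPM + 1) of the spinous list was 8.46, 8.53, 9.49 and 9.10 in TPH1 knockout libraries 1 to 4, against 10.2, 9.63, 9.61 and 9.64 in WT libraries 1 to 4. The mean over the Skint genes was 3.23, 3.39, 4.15 and 3.61 in TPH1 knockout libraries, against 4.42, 3.56, 3.72 and 4.12 in WT libraries. In both, WT library 1 was the highest library and TPH1 knockout library 3 the highest of its group. Over the 8 libraries the Skint mean had an r of 0.85 with the spinous and with the granular list, of -0.68 with the basal list and of 0.86 with a list of 8 fibroblast genes. The fibroblast list ran from 6.04 to 7.47 in TPH1 knockout skin and from 6.39 to 8.09 in WT skin. With the spinous level as a covariate, 7 members changed the sign of their log2 fold change, and the spinous level itself did not overlap between the genotypes. The part of the granular and fibroblast lists in the Skint values was not tested. Skint1 kept a log2 fold change of -0.82 with the basal level as a covariate and of -0.79 with the spinous level (edgeR adjusted p = 0.0867 and 0.162).

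**Figure D5:**
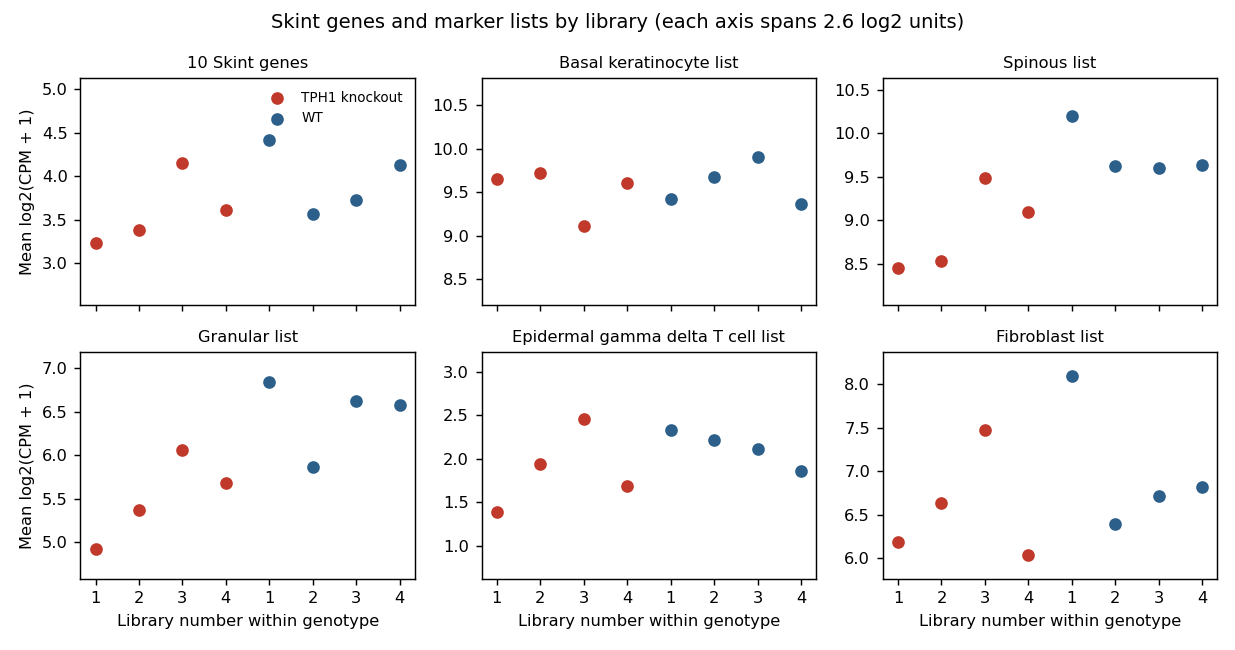
Mean log2(CPM + 1) of the 10 Skint genes and of 5 marker lists in TPH1 knockout libraries 1 to 4 (red, left) and WT libraries 1 to 4 (blue, right), with every axis spanning the same number of log2 units. WT library 1 is the highest of its group, and TPH1 knockout library 3 of its own, for the Skint, spinous, granular, epidermal gamma delta T cell and fibroblast panels, and TPH1 knockout library 3 is the lowest in the basal panel.

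Epidermal gamma delta T cells, the cells that Skint proteins serve, left a weak signal in whole skin. Of 25 listed marker genes 23 were found under these names, 21 were tested and 0 were called by edgeR. At an unadjusted p under 0.05, 3 were lower and 1 was higher in TPH1 knockout skin. Of all genes tested, 9.37% were lower at that threshold and 17.6% passed it in either direction. The median log2 fold change of this list was -0.29. Trdc, the constant region of the delta chain, was at 2.78, 4.50, 12.2 and 3.09 CPM in TPH1 knockout libraries 1 to 4, against 7.30, 9.82, 7.41 and 5.22 CPM in WT libraries 1 to 4. In 3 of the 4 TPH1 knockout libraries Trdc was below every WT library, and TPH1 knockout library 3 was above them all (log2 fold change -0.39 ± 0.46 SE, edgeR adjusted p = 0.675). Trdv4 averaged 0.587 ± 0.672 CPM in TPH1 knockout skin and 0.590 ± 0.425 CPM in WT skin, and Trgv5, with 65 counts in all 8 libraries, was too low to test. By mean level, the other leading markers of the list were Ikzf2 and Fcer1g, which many other cells also express, and Ccr4 (edgeR adjusted p = 0.334, 0.0903 and 0.662). Of 10 markers of alpha beta T cells, 5 were tested, 0 called and 1 lower at an unadjusted p under 0.05. The receptor gene Trbc2 was at 12.3 ± 1.36 CPM in TPH1 knockout skin and 23.5 ± 6.49 CPM in WT skin (edgeR adjusted p = 0.0739). It had the smallest p of the 5. Trbc1, Trac, Cd5 and Cd4 had log2 fold changes of -0.62, -0.34, -0.017 and 0.13 (edgeR adjusted p = 0.543, 0.818, 0.988 and 0.945). Trac averaged only 0.566 CPM in TPH1 knockout skin and 0.722 CPM in WT skin.

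Other keratinocyte genes that sustain these T cells did not pass. Of 17 listed, 14 were tested and 0 called, with a median log2 fold change of -0.31. At an unadjusted p under 0.05, 3 were lower and 1 was higher, against 9.37% lower and 17.6% in either direction of all genes tested. The mean log2(CPM + 1) of this list ran from 4.28 to 4.42 in TPH1 knockout libraries and from 4.45 to 4.69 in WT libraries, a narrow gap. Gene by gene, 2 of the 14 had every TPH1 knockout library below every WT library, as had 5.65% of all genes tested. The most abundant were Cdh1, which encodes the adhesion protein E-cadherin, at 271 ± 17.9 CPM in TPH1 knockout skin and 366 ± 49.3 CPM in WT skin (SD, n = 4 each; edgeR adjusted p = 0.194), and Plxnb2, a plexin receptor gene (edgeR adjusted p = 0.444). The skin-homing chemokine gene Ccl27a was at 98.8 ± 29.5 CPM in TPH1 knockout skin and 134 ± 42.0 CPM in WT skin. Cxadr, whose protein binds the T cell receptor partner JAML, was at 70.6 ± 10.5 CPM in TPH1 knockout skin and 78.3 ± 17.6 CPM in WT skin. The T cell growth factor gene Il15 was at 6.83 ± 1.38 CPM in TPH1 knockout skin and 6.83 ± 2.004 CPM in WT skin, and its log2 fold change was -0.00093 ± 0.25 (SE). Of 13 listed products of these T cells, 6 were tested, 0 called and 3 lower at an unadjusted p under 0.05, with a median of -0.96, and Il17a had 0 counts. The growth factor gene Areg, one of them, was at 1.29 ± 0.567 CPM in TPH1 knockout skin and 3.95 ± 1.33 CPM in WT skin (edgeR adjusted p = 0.109). The more abundant Igf1, Fgf7 and Fgf10 had log2 fold changes of -0.61, 0.52 and -0.27 (edgeR adjusted p = 0.368, 0.485 and 0.733).

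Other marker lists were followed for the tissue make-up around the Skint genes. Of 8 Langerhans cell genes 0 were called, with a median log2 fold change of -0.64, and the list's level had an r of 0.75 with the Skint mean. The 8 fibroblast and 8 adipocyte genes had median log2 fold changes of -0.32 and -0.52, and edgeR called 0 of either. Hair follicle bulge (10 genes), sebaceous gland (8 genes), skeletal muscle (10 genes) and hair shaft (7 tested) lists also had 0 called, with medians of 0.16, 0.15, 0.61 and 2.06. At an unadjusted p under 0.05, edgeR had 4 lower Langerhans genes, 1 lower and 1 higher adipocyte gene, 1 lower bulge gene, 2 higher muscle genes, 3 higher hair shaft genes and 0 fibroblast or sebaceous genes. Of all genes tested, 9.37% were lower at that threshold and 17.6% passed it in either direction. The hair shaft genes were Krt31, Krt33a and Dsg4, each by far the highest in TPH1 knockout library 3. In TPH1 knockout libraries 1 to 4, Krt31 was at 0.602, 4.37, 43.3 and 0.410 CPM and Krt33a at 0.370, 2.71, 75.1 and 0.455 CPM. Dsg4 was at 0.833, 0.708, 10.8 and 0.137 CPM in the same libraries. Of 18 immediate early and heat shock genes, which can respond to handling of the tissue, 1 fell, Nr4a1 (-2.18 ± 0.33 SE), and the median of the list was -1.62. At an unadjusted p under 0.05, 16 of the 18 were lower, against 9.37% of all genes tested. With 1 library left out, Nr4a1 passed without WT library 2 or TPH1 knockout library 3, and its edgeR adjusted p otherwise reached 0.140. The level of that list ran from 6.50 to 7.46 in TPH1 knockout skin and from 7.13 to 9.03 in WT skin, with an r of 0.45 with the Skint mean. With it as a covariate, Skint1 had a log2 fold change of -0.69 (edgeR adjusted p = 0.5998). In the same fit Skint11 was at -0.0089, Skint5 at -0.066, Skint10 at -0.15 and Skint7 at 1.12 on the log2 scale, and edgeR called 0 members.

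Genes with the pattern most like that of the family were ranked by Pearson's r with the mean log2(CPM + 1) of the 10 members over 8 libraries, among 13795 protein-coding genes with a mean of at least 1 CPM. The first 10 were Rab27b, Grk5, Btc, Gm14137, Prdm1, Asah2, Flg2, Tmprss11f, Slc6a14 and Paqr8, with r from 0.96 to 0.98, and from 0.91 to 0.99 without WT library 1 and TPH1 knockout library 3. An r above 0.8 was reached by 3.49% of the genes ranked. Among the 10 are Flg2, a filaggrin relative of the cornified layer, and Prdm1, which encodes the transcription factor Blimp1. Flg2 was at 56.8, 125, 464 and 195 CPM in TPH1 knockout libraries 1 to 4, against 675, 168, 173 and 333 CPM in WT libraries 1 to 4. None of these 10 genes was called between genotypes by edgeR (adjusted p from 0.311 to 0.605).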

How the data were processed

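The authors deposited 1 table of RSEM output per library, with 55488 genes, and a matrix of 17382 genes. Per the submitters' processing notes, the build was GRCm38 and the tools were RSEM 1.31, STAR 2.7.6a, DESeq and DESeq2, with no role or order given, and the labels name Ensembl release 101. Per the labels' protocols, RNA was extracted with the RNeasy kit and libraries were made with NEBNext Ultra, which does not mark strand, so reads of overlapping antisense genes cannot be told apart. The deposited expected counts are RSEM estimates, not normalized. The deposited TPM values are scaled to effective length and library size and were used for levels and in limma. The deposited FPKM values entered no test. The effective lengths deposited by the authors entered 1 alternative. The authors' matrix holds a normalized signal, DESeq2-normalized per the labels.

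Expected counts were rounded and tested with edgeR 4.0.16 (R 4.3.3): filterByExpr by genotype (minimum count 10, minimum total 15), TMM scaling and the robust quasi-likelihood test with genotype as the only term, over 16908 genes. The SE was taken as the size of the log2 fold change over the root of the F statistic. A gene was called at an adjusted p under 0.05. Alternatives used DESeq2 1.42.0 and limma 3.58.1. The tests were checked on simulated counts. Positions and coding sequences are from GENCODE M21 (GRCm38), with the longest coding sequence per gene, aligned with Biopython 1.88. Promoters are from RefSeq. Symbols came from the matrix for 17354 genes and a name table for 37798.

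The members and gene lists were chosen with earlier results of these data known. Genes were named by rule: every member, called members of each list or otherwise up to 4 with the highest mean CPM, every tested gene within 1 Mb of the cluster, and the 10 genes most like the family. Further named genes were chosen after their values were seen.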

Additional observations from a re-analysis of the deposited data

Results flagged for a closer look

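Of 20 groups of 4 libraries, 1 for each member and genotype, 1 held a library far from the other 3. Skint6 was at 27.0 CPM in WT library 1, and the next highest WT library was at 12.8 CPM. About 1 in 20 such groups is picked out by chance.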

How the results depend on the processing

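No Skint gene was called by edgeR or limma under any setting tried, and DESeq2 called 1, Skint1 (-0.85). Skint1 was negative under all 12 other settings and in all 8 fits without 1 library (-0.93 to -0.76). The median over the members was 0.46 with the spinous level as a covariate and -0.88 without WT library 2 and TPH1 knockout library 3, and -0.83 to -0.17 without 1 library. With effective length as an offset the median was -0.35, against -0.47 in the main fit. Skint5, whose effective length ran from 1938 to 3083 bases, was at -0.28 with that offset, against -0.52 in the main fit. The covariates of spinous, hair shaft and handling levels and the pairs of libraries left out were chosen after seeing the data.

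Skint3 became negative with DESeq2's size factors (-0.0069), with DESeq2 (-0.0057), with limma on log2(TPM + 1) (-0.043) and log2(TPM + 0.1) (-0.058), with the basal (-0.23), hair shaft (-0.42) and handling (-0.12) covariates, without WT library 1 and TPH1 knockout library 3 (-0.027), and without WT library 2 and TPH1 knockout library 3 (-0.67). With the spinous covariate the log2 fold changes were 1.04 for Skint2, 0.70 for Skint4, 0.84 for Skint5, 0.45 for Skint6, -0.21 for Skint7, 0.25 for Skint9 and 0.47 for Skint10. Without 1 library, Skint2 ran from -0.78 to 0.11, Skint3 from -0.53 to 0.51 and Skint4 from -0.38 to 0.053, and the other members kept their sign. The cause was not tested.

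Over all genes, 110 were called, 90 of them lower, and 4 were list members. Both counts were 994 and 37 with DESeq2, 28 and 2 with limma on log2(TPM + 1), 29 and 2 on log2(TPM + 0.1) (18 and 21 genes lower), 177 and 9 with the basal covariate, 405 and 7 with the spinous, 42 and 1 with the hair shaft and 5 and 0 with the handling covariate. Without WT library 1 and TPH1 knockout library 3, 70 genes were called, and without WT library 2 and TPH1 knockout library 3, 167 genes and 13 list members. With no filter 8 list members were called. Without 1 library, 8 (without TPH1 knockout library 2) to 170 genes (without TPH1 knockout library 3) and 0 to 12 list members were called. The lower majority turned without TPH1 knockout library 1 (8 lower, 11 higher), without TPH1 knockout library 2 (3 lower, 5 higher) and with the handling covariate (2 lower, 3 higher).

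No paired analysis was possible because the labels carry no replicate number shared between the genotypes, and the numbers used here are names only. With 4 libraries a genotype, most intervals span changes in both directions, and Trgv5 and Tph1 were too low to test.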
